A study of Mus musculus with 12 samples.

Results

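The genes described here are the 10 listed genes of the methionine cycle and transsulfuration, Mat1a, Mat2a, Mat2b, Gnmt, Nnmt, Ahcy, Bhmt, Mtr, Cbs and Cth. They were chosen by name, and each symbol was matched to 1 Ensembl mouse gene identifier among the 53715 genes of the count table. All 10 passed the filter of more than 10 counts in any library, as did 17779 genes in all. Nnmt passed it through its counts in differentiated and mature hepatocytes, because it had at most 5 counts in any hepatoblast library.

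The methionine cycle turns methionine and ATP into S-adenosylmethionine (SAM), the methyl donor of most cellular methylation reactions. Methyl transfer leaves S-adenosylhomocysteine (SAH), which is hydrolysed to homocysteine. Homocysteine is then methylated back to methionine, or it leaves the cycle by transsulfuration toward cysteine, taurine and glutathione. The liver is the main organ of this metabolism. SAM synthesis in adult hepatocytes is known to run mostly through Mat1a, and that of fetal liver, dividing cells and other tissues through its paralog Mat2a.

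Transcripts of these genes were counted in 3 groups of mouse liver cells of the strain C57BL/6JOlaHsd, with 4 libraries per group. Hepatoblasts, the embryonic progenitors of hepatocytes and bile duct cells, were taken from E14.5 livers by magnetic separation for the surface protein Dlk1, and each isolation pooled several embryonic livers. Diff. hepatocytes were grown from such E14.5 Dlk1+ hepatoblasts for 4 days on fibronectin-coated plates, in a medium with serum, L-glutamine, insulin-transferrin-selenium supplement, dexamethasone and Matrigel. Mature hepatocytes were isolated by collagenase perfusion from adult male mice of 8 to 12 weeks. The labels give no transgene or knock-down for these groups. Between the cultured and the mature cells, age, culture, sex of the animals and way of isolation cannot be told apart. Between hepatoblasts and mature hepatocytes, age, sex of the animals and way of isolation cannot be told apart either.

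The libraries held 19581551 to 25216977 counts on genes. Levels are given as CPM, the counts of a gene scaled to a common library size after correction by the trimmed mean of M values (TMM), and comparisons of levels between genes are made on CPM per kilobase of annotated exon. The summed CPM of 10 hepatocyte genes was 37771 to 63608 in hepatoblasts, 65677 to 74060 in Diff. hepatocytes and 128039 to 178491 in mature hepatocytes. That of 5 hepatoblast genes was 41763 to 69977, 37796 to 44111 and 65.8 to 109. These genes did not run alike. In hepatoblasts, Diff. and mature hepatocytes, Dlk1 averaged 3521, 94.1 and 4.19 CPM and Afp 39308, 18596 and 42.3 CPM. Igf2 averaged 660, 200 and 0.972 CPM and Gpc3 1283, 382 and 1.60 CPM. H19 was higher in Diff. hepatocytes than in hepatoblasts, at 14908, 22218 and 33.6 CPM. No gene of either list was at 0 in any group. Hepatoblasts replicate 1 stood apart, with 3064 summed CPM of 10 erythroid genes against 377 to 621 in the other hepatoblast libraries. Values without it are given where a result rests on it. In these bulk libraries, fewer cells of a type and less RNA per cell cannot be told apart.

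Mat1a RNA in Diff. hepatocytes overlapped the range of mature hepatocytes, Gnmt, Nnmt, Ahcy, Cbs and Cth RNA lay between both outer groups, and Bhmt RNA lay below the range of the hepatoblasts. Mat1a rose 39.5-fold from hepatoblasts to Diff. hepatocytes and 47.1-fold from hepatoblasts to mature hepatocytes. With the TMM scaling, Mat2a did not pass the threshold in any comparison, so the change in the balance of both genes rested on Mat1a and not on a called loss of Mat2a. A gene counted as called where edgeR's quasi-likelihood test gave p under 0.01, after Benjamini-Hochberg adjustment over the 17779 genes, and the log2 fold change exceeded 1 in size.

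**Figure D1:**
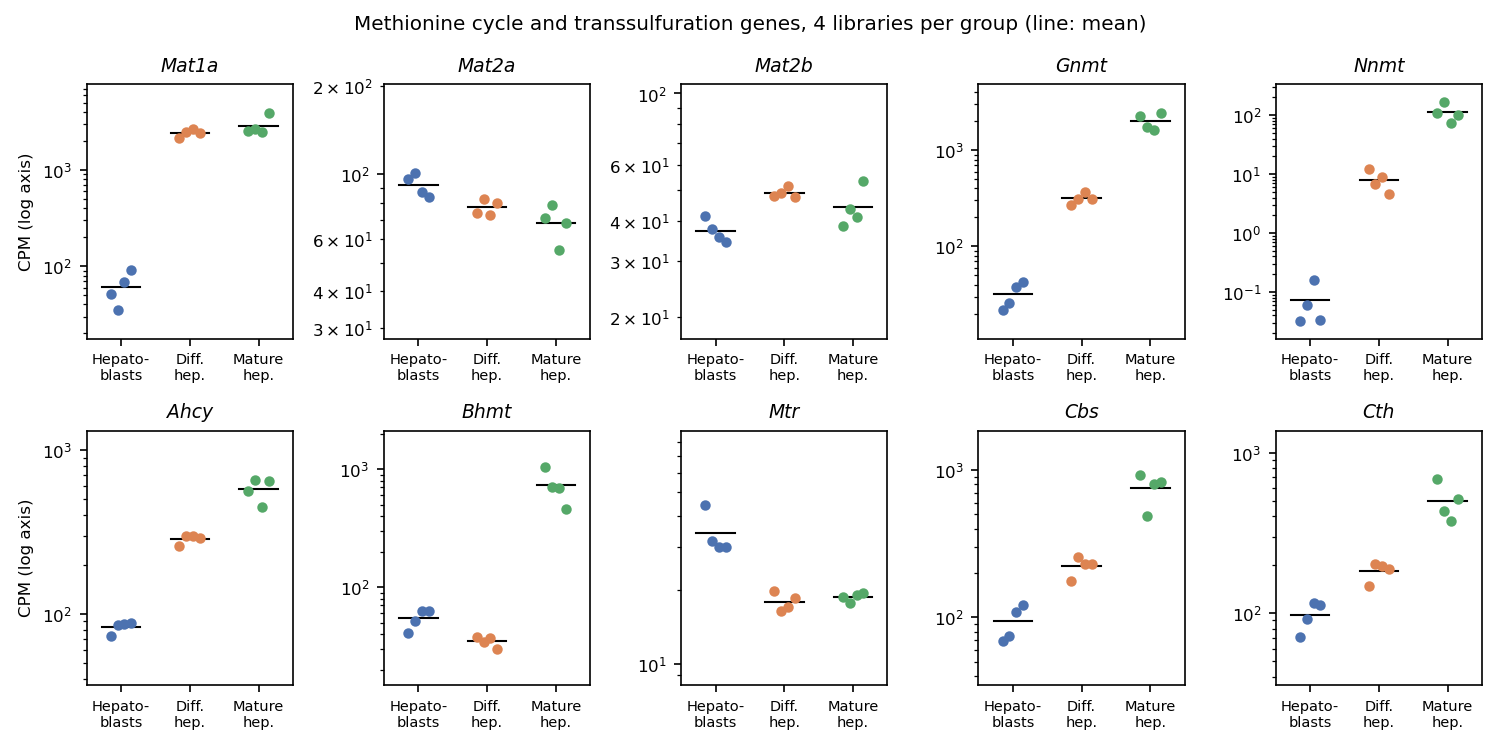
CPM of each of the 10 genes on a log axis, with 1 point per library and a line at the mean of the 4 libraries of a group. Each panel has its own range. Mat1a was 35.4 to 90.4 CPM in hepatoblasts and at least 2150 CPM in both hepatocyte groups, Mat2a stayed between 55.2 and 101 CPM, and Bhmt was high in mature hepatocytes alone.

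Of the 10 genes, 5 were higher and 0 lower in Diff. hepatocytes than in hepatoblasts, where 14.9% of all tested genes were called higher and 14% lower. In mature hepatocytes, 7 were higher and 0 lower than in hepatoblasts, against 20.1% and 24.7% of all tested genes. Compared with mature hepatocytes, Diff. hepatocytes had 0 higher and 6 lower, against 20.2% and 15.6%. With library totals in place of TMM, the members called were 4 higher and 1 lower, 7 higher and 2 lower, and 0 higher and 4 lower. The background moved too, so the TMM shares do not apply to these counts. Over all tested genes, library totals gave 1985 higher and 3621 lower, 2007 and 7920, and 5500 and 1776. TMM had given 2648 and 2497, 3580 and 4391, and 3586 and 2776. Nnmt, which could pass the filter only through the groups where it was high, is among the genes counted as higher than in hepatoblasts. Over the 10 genes, the median log2 fold change stood at 1.08, 2.90 and -1.23 in these comparisons, and that of all tested genes was -0.01, -0.15 and 0.09. The CPM of Diff. hepatocytes and hepatoblasts did not overlap for 10 of the 10 genes, as for 57.5% of all tested genes. For mature hepatocytes and hepatoblasts this held for 9 of 10 against 66%, and for Diff. and mature hepatocytes for 6 of 10 against 61.6%. The 3 comparisons share libraries, so their counts are not independent of each other.

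Mat1a encodes the catalytic subunit of the methionine adenosyltransferases of adult liver. The gene (ENSMUSG00000037798) lies on the plus strand of chr14:41105035-41124412 of GRCm38. Its levels were 50.8, 35.4, 68.6 and 90.4 CPM in hepatoblasts, 2150, 2490, 2649 and 2408 CPM in the Diff. hepatocytes, and 2540, 2682, 2458 and 3859 CPM in the mature hepatocytes. Both hepatocyte groups lay far above the hepatoblasts, and the ranges of the hepatocyte groups overlapped. The log2 fold change was 5.31 ± 0.29 (SE, edgeR adjusted p = 7.63e-09) between Diff. hepatocytes and hepatoblasts, and 5.56 ± 0.29 (adjusted p = 1.47e-09) between mature hepatocytes and hepatoblasts. Between Diff. and mature hepatocytes it was -0.25 ± 0.24 (adjusted p = 0.37), and its sign turned with the scaling, to 0.29 with library totals. Among the hepatoblasts, replicates 3 and 4 had more Mat1a RNA than replicates 1 and 2, and the coefficient of variation was 38.6%, against 8.59% in Diff. hepatocytes.

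Mat2a encodes the catalytic subunit of the enzyme of fetal liver and of most other tissues. The gene (ENSMUSG00000053907) lies on the minus strand of chr6:72432799-72439558. Mat2a was at 96.5, 101, 87.3 and 83.6 CPM in hepatoblasts, 73.7, 82.6, 72.8 and 80.0 CPM in the Diff. hepatocytes, and 71.1, 78.6, 55.2 and 68.1 CPM in the mature hepatocytes. The highest value of either hepatocyte group was below the lowest of the hepatoblasts, by little. The differences were small, with a log2 fold change of -0.25 ± 0.11 (adjusted p = 0.0536) in Diff. hepatocytes and -0.43 ± 0.11 (adjusted p = 0.00241) in mature hepatocytes, each against hepatoblasts, where the median of all genes was -0.01 and -0.15. With library totals in place of TMM, Mat2a was called lower in mature hepatocytes, at -1.29, where the median of all genes was -1.0. The summed CPM of 12 cell cycle genes was 1560 to 2634 in hepatoblasts, 107 to 191 in Diff. hepatocytes and 53.7 to 64.1 in mature hepatocytes, and the part of that difference in the levels of Mat2a was not tested.

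The coding sequences of Mat1a and Mat2a are close relatives, which bears on whether reads can be told apart. They were 1191 and 1188 bases long and 73.0% of 1188 aligned bases were identical, and the longest identical run was 15 bases. A pair of aligned stretches of 90 bases around that run is shown from the reference transcripts, 5′ to 3′, with the 17 bases that differ in capitals.
Mat1a coding bases 309 to 398: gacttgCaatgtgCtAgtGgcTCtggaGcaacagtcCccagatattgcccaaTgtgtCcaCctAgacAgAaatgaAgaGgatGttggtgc
Mat2a coding bases 306 to 395: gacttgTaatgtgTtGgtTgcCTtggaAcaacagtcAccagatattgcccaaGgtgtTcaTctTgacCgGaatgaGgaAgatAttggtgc
None of the 75-base sequences of Mat1a transcripts, the length of the reads, was found in a transcript of another gene. For Mat2a, 1.27% were also in the gene model Gm9523, which had 7, 3 and 1 counts summed over the 4 libraries of hepatoblasts, Diff. hepatocytes and mature hepatocytes. Exons of Particl, a gene on the opposite strand, overlap those of Mat2a. Particl had 98, 70 and 68 summed counts in the 3 groups, against 11600, 6884 and 4303 of Mat2a.

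Mat2a RNA is known to carry hairpins that the RNA methyltransferase METTL16 binds and modifies, through which the transcript responds to the supply of SAM. The letters TACAGAGAA and TACAGAAAA, written as DNA and read on the transcript strand, were searched for in 1 reference transcript of each of the 10 genes. Mat2a held 6 matches, all after the end of the coding sequence, and the other 9 genes held 0. Of the longest transcripts of 21814 protein-coding genes, 4.15% held the first motif and 3.55% the second, and 0.00917% held at least 4 matches of both. The 6 sites of Mat2a are shown because they set its transcript apart from that of Mat1a, with the motif in capitals and 10 bases on each side.
Mat2a, 40 bases after the coding end: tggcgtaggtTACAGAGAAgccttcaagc
Mat2a, 824 bases after: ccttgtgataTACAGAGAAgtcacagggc
Mat2a, 1003 bases after: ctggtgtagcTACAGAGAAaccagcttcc
Mat2a, 1118 bases after: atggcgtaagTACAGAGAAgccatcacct
Mat2a, 1229 bases after: caaggtgtccTACAGAAAAaccttgggtt
Mat2a, 1337 bases after: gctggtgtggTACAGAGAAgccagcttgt
Mettl16 itself was at 32.8 ± 4.51 CPM in hepatoblasts, 18 ± 0.644 CPM in the Diff. hepatocytes and 19.8 ± 2.16 CPM in the mature hepatocytes (SD, n = 4), and it was not called in any comparison with the TMM scaling. Modification of the RNA was not measured.

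Mat2b encodes the regulatory subunit that binds the Mat2a enzyme. The gene (ENSMUSG00000042032) lies on the minus strand of chr11:40679314-40695203. Mat2b had 41.3, 37.8, 35.5 and 34.3 CPM in hepatoblasts, 47.8, 48.7, 51.3 and 47.4 CPM in the Diff. hepatocytes, and 38.5, 43.5, 41.1 and 53.3 CPM in the mature hepatocytes. Diff. hepatocytes lay above the hepatoblasts without overlap, whereas mature hepatocytes overlapped both groups. The log2 fold change was 0.39 ± 0.10 (adjusted p = 0.00442) in Diff. hepatocytes and 0.24 ± 0.10 (adjusted p = 0.0425) in mature hepatocytes against hepatoblasts, which is below the fold change threshold, and the latter turned to -0.62 with library totals.

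The balance of both catalytic genes was compared within each library, as a ratio that no scaling of library sizes can change. Per kilobase of exon, the ratio of Mat1a to Mat2a counts was 0.681, 0.453, 1.02 and 1.40 in hepatoblasts, 37.7, 39.0, 47.1 and 38.9 in Diff. hepatocytes, and 46.2, 44.1, 57.6 and 73.3 in mature hepatocytes. Hepatoblasts held RNA of both genes at similar levels, with Mat1a lower in 2 libraries and at or above Mat2a in 2. On the longest annotated transcript of each gene, the ratios were lower, at 0.342 to 1.06, 28.5 to 35.5 and 33.3 to 55.3. The log2 ratio was 5.64 ± 0.36 (SE) higher in Diff. hepatocytes than in hepatoblasts, which is 49.8-fold, and 6.06 ± 0.39 higher in mature hepatocytes, which is 66.5-fold. A two-sided exact permutation test gave p = 0.0286 for either, the smallest p that 4 against 4 libraries can give, or 0.0429 adjusted over the 12 ratio tests. Between Diff. and mature hepatocytes the log2 ratio differed by -0.42 ± 0.18 (exact permutation p = 0.0857, adjusted 0.103) and the groups overlapped.

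Expressed as a share of the RNA of both genes per kilobase, Mat1a took 45.1% ± 11.8 among the hepatoblasts, 97.6% ± 0.228 among the Diff. hepatocytes and 98.2% ± 0.400 among the mature hepatocytes (SD, n = 4). Their sum was 38.2 ± 5.07, 716 ± 60.2 and 847 ± 189 CPM per kilobase. Relative to Mat2a, the regulatory subunit Mat2b had a ratio of 0.335 to 0.384 per kilobase in hepatoblasts, 0.530 to 0.632 in Diff. hepatocytes and 0.485 to 0.702 in mature hepatocytes. On the longest transcripts these ratios were 0.514 to 0.589, 0.812 to 0.970 and 0.745 to 1.08. The log2 ratio of Mat2b to Mat2a was higher than in hepatoblasts by 0.65 ± 0.07 in Diff. hepatocytes and by 0.68 ± 0.15 in mature hepatocytes (exact permutation p = 0.0286, adjusted 0.0429, for either). Between Diff. and mature hepatocytes it differed by -0.03 ± 0.15 (exact permutation p = 0.857).

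**Figure D2:**
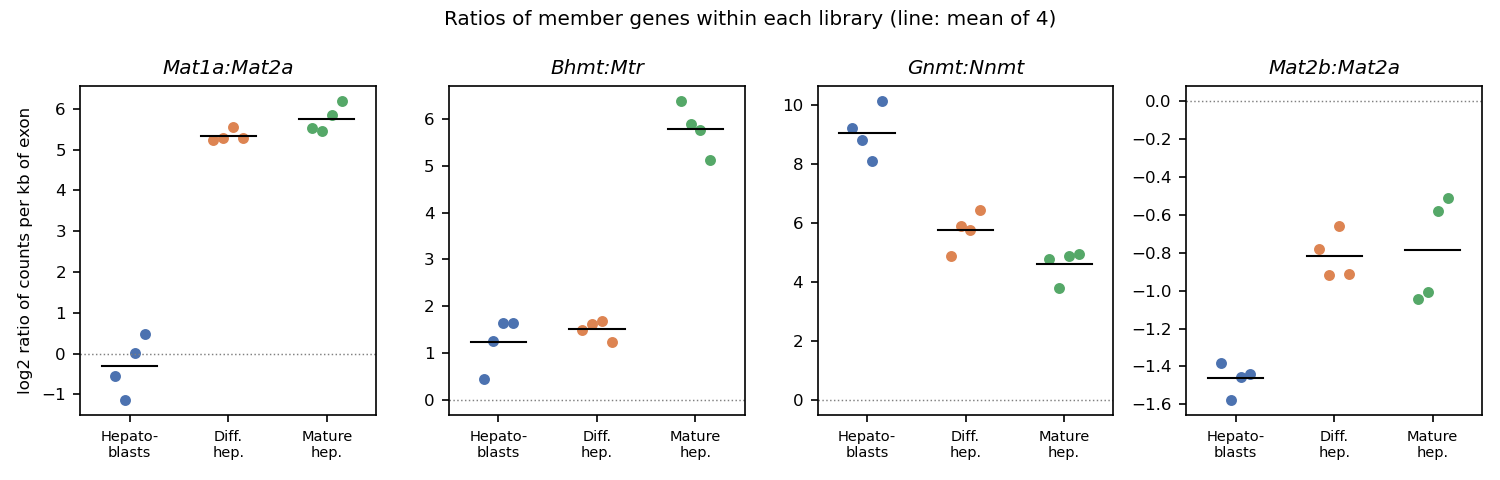
Log2 ratio of counts per kilobase of exon between the genes named above each panel, with 1 point per library and a line at the mean of the 4 libraries. The dotted line at 0 marks equal levels, and each panel has its own range. The Mat1a to Mat2a points of hepatoblasts lie around 0 and those of both hepatocyte groups above 5, whereas the Bhmt to Mtr points of Diff. hepatocytes lie among those of the hepatoblasts.

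Gnmt, Nnmt and Ahcy, which use SAM or clear its product, had more RNA in Diff. hepatocytes than in hepatoblasts and still more in mature hepatocytes. Gnmt encodes glycine N-methyltransferase, an abundant enzyme of adult liver that disposes of excess SAM, and its gene (ENSMUSG00000002769) lies on the minus strand of chr17:46725664-46729168. Gnmt levels were 22.0, 25.4, 37.6 and 42.8 CPM in hepatoblasts, 270, 314, 368 and 308 CPM in the Diff. hepatocytes, and 2285, 1763, 1629 and 2411 CPM in the mature hepatocytes. The groups did not overlap in any pair. Gnmt was 9.85-fold higher in Diff. hepatocytes than in hepatoblasts (log2 3.30 ± 0.22, adjusted p = 4.94e-08) and 63.3-fold higher in mature hepatocytes (log2 5.98 ± 0.25, adjusted p = 2.1e-10). Diff. hepatocytes remained 6.42-fold below mature hepatocytes (log2 -2.68 ± 0.21, adjusted p = 1.61e-07).

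Nnmt encodes nicotinamide N-methyltransferase, which spends SAM on nicotinamide. Its gene (ENSMUSG00000032271) lies on the minus strand of chr9:48591877-48605153. Nnmt was close to undetected in hepatoblasts, with 1, 2, 5 and 1 counts, or 0.0322, 0.0597, 0.162 and 0.0331 CPM. It had 12.1, 6.80, 8.75 and 4.59 CPM in the Diff. hepatocytes and 108, 166, 72.8 and 102 CPM in the mature hepatocytes. The ratio of pooled CPM (summed counts over summed effective library sizes) to hepatoblasts was 114 (95% exact counting interval 59.6 to 250) in Diff. hepatocytes and 1551 (816 to 3393) in mature hepatocytes, an interval that covers counting error alone. No fitted fold change against hepatoblasts is given, since with so few counts its size depends on the prior count. Between Diff. and mature hepatocytes, with 93 counts or more in each library, the log2 fold change was -3.79 ± 0.30 (adjusted p = 1.55e-07).

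In Diff. hepatocytes the Nnmt levels followed the same order of libraries as the summed CPM of 9 mesenchymal genes, with 2956, 1451, 2000 and 1216 in replicates 1 to 4. That sum was 679 to 1322 in hepatoblasts, where Nnmt was at 1 to 5 counts, and 51.9 to 74.0 in mature hepatocytes, where Nnmt was highest. Of the mesenchymal genes, Col1a1 averaged 300 CPM in hepatoblasts and 694 CPM in the Diff. hepatocytes, and Acta2 10.4 and 236 CPM. Pdgfrb, at 19.9 and 14.6 CPM, and Lrat, at 2.12 and 1.09 CPM, went the other way, and the remaining genes of the list rose. No gene of the list was at 0 in any group. Among Diff. hepatocytes, replicate 1 also had the highest summed CPM of macrophage (157), bile duct (232), erythroid (29.7) and cell cycle (191) genes. It did not for endothelial, hepatocyte or hepatoblast genes. The shared order of the 4 libraries and the part of other cell types in the Nnmt level of Diff. hepatocytes were not tested. The ratio of Gnmt to Nnmt per kilobase was 276 to 1126 in hepatoblasts, 29.2 to 87.3 in Diff. hepatocytes and 13.9 to 31.0 in mature hepatocytes. The hepatoblast ratios rest on 1 to 5 counts of Nnmt. Between Diff. and mature hepatocytes the log2 ratio differed by 1.15 ± 0.43 (exact permutation p = 0.0857, adjusted 0.103).

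Ahcy encodes adenosylhomocysteinase, which hydrolyses SAH to homocysteine and adenosine. Its gene (ENSMUSG00000027597) lies on the minus strand of chr2:155059310-155074497. Ahcy was at 73.5, 85.1, 86.5 and 88.5 CPM in hepatoblasts, 259, 297, 298 and 289 CPM in the Diff. hepatocytes, and 566, 654, 451 and 651 CPM in the mature hepatocytes. Each group was separate from the others. Ahcy rose 3.43-fold in Diff. hepatocytes (log2 1.78 ± 0.12, adjusted p = 5.93e-08) and 6.96-fold in mature hepatocytes (log2 2.80 ± 0.13, adjusted p = 4.18e-10) over hepatoblasts. Diff. hepatocytes were lower than mature hepatocytes by a log2 fold change of -1.02 ± 0.12 (adjusted p = 6.07e-06), just past the threshold, and the call was lost without Diff. hepatocytes replicate 1 (-0.98) or without mature hepatocytes replicate 2 or 4 (-0.97 for either), and with library totals (-0.49). Of the 75-base sequences of Ahcy transcripts, 65.9% were also in 3 other gene models, Gm4737 above the rest. Gm4737 had 57, 92 and 147 counts over the 4 libraries of each group against 10470, 25475 and 36663 of Ahcy, and reads that the counting could not assign to 1 gene would be missing from both.

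**Figure D3:**
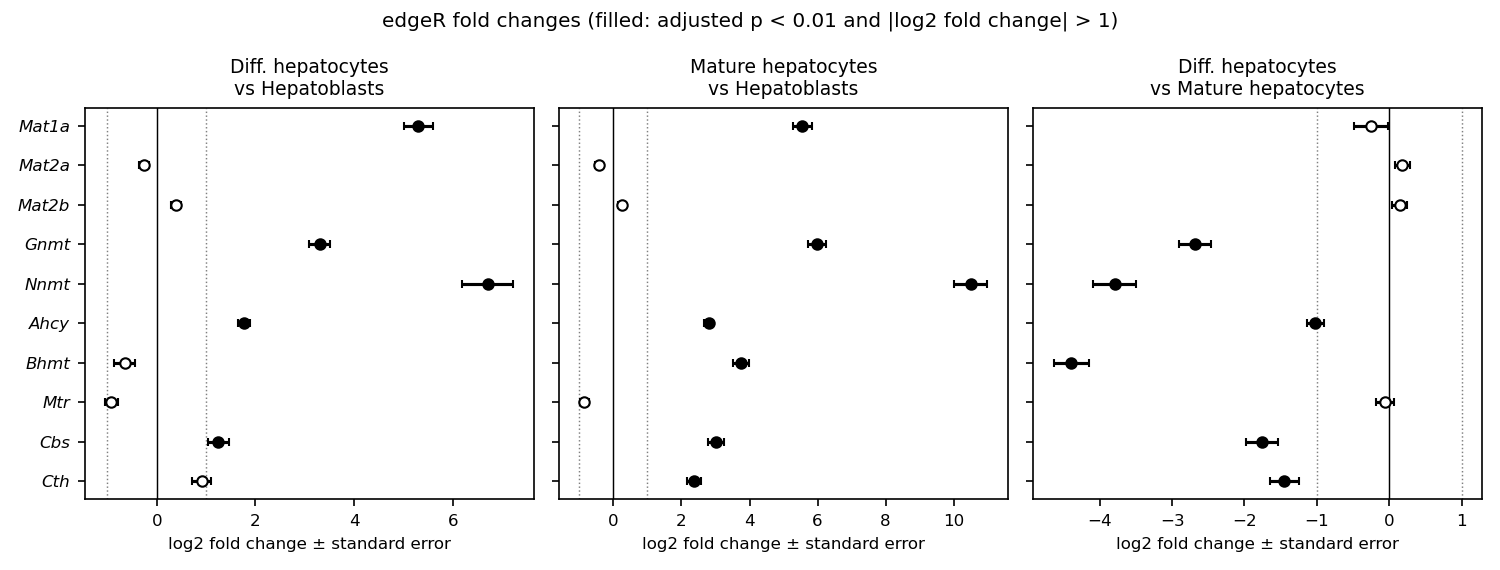
Log2 fold change of each gene with its standard error from the edgeR fit, with the hepatoblasts as the baseline in the first pair of panels and the mature hepatocytes in the third. Filled points passed the threshold, dotted lines mark a log2 fold change of 1 in either direction, and the horizontal ranges differ between panels. Mat1a lies at 5.31 and 5.56 in the first panels and at -0.25 in the third, where Bhmt is the lowest at -4.40. The points of Nnmt in the first pair of panels depend on the prior count.

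Of the 10 genes, Bhmt differed the most between Diff. and mature hepatocytes. It encodes betaine-homocysteine methyltransferase, which takes the methyl group from betaine and is an abundant enzyme of adult liver. The gene (ENSMUSG00000074768) lies on the minus strand of chr13:93616675-93637961. Bhmt was at 40.7, 51.4, 63.1 and 62.8 CPM in hepatoblasts, 37.6, 34.3, 37.1 and 29.6 CPM in the Diff. hepatocytes, and 1053, 710, 698 and 457 CPM in the mature hepatocytes. The values of Diff. hepatocytes lay below those of the hepatoblasts, and both lay far below the mature hepatocytes. Against hepatoblasts, the log2 fold change was -0.65 ± 0.21 (adjusted p = 0.0182, not called) in Diff. hepatocytes and 3.74 ± 0.23 (adjusted p = 8.54e-09) in mature hepatocytes. Diff. hepatocytes had 21-fold less Bhmt RNA than mature hepatocytes (log2 -4.40 ± 0.24, adjusted p = 5.17e-09). Of the 75-base sequences of Bhmt, 21% were shared, chiefly with Gm5096, which had 18, 8 and 103 summed counts against 6826, 3102 and 45735 of Bhmt. Gm15622, which overlaps Bhmt exons on the opposite strand, had 84, 40 and 29.

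Mtr encodes methionine synthase, which uses methyltetrahydrofolate and cobalamin and is present in most cells. Its gene (ENSMUSG00000021311) lies on the minus strand of chr13:12182712-12258113. Mtr was at 44.2, 31.8, 29.9 and 29.8 CPM in hepatoblasts, 19.8, 16.4, 17.1 and 18.5 CPM in the Diff. hepatocytes, and 18.7, 17.7, 19 and 19.5 CPM in the mature hepatocytes. Both hepatocyte groups lay below the hepatoblasts and overlapped each other. The log2 fold change was -0.92 ± 0.12 (adjusted p = 3.12e-05) in Diff. hepatocytes and -0.86 ± 0.13 (adjusted p = 3.57e-05) in mature hepatocytes, inside the fold change threshold, and past it at -1.26 and -1.73 with library totals, where the medians of all genes were -0.34 and -1.0. Hepatoblasts replicate 1, the library rich in erythroid RNA, was the highest, and without it the values were -0.76 and -0.71. That library also had the highest summed CPM of 12 cell cycle genes, 2634 against 1560 to 1770 in the other hepatoblasts, and the part of either in its Mtr level was not tested.

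The ratio of Bhmt to Mtr per kilobase was 1.36, 2.39, 3.13 and 3.11 in hepatoblasts, 2.81, 3.09, 3.22 and 2.37 in Diff. hepatocytes, and 83.4, 59.2, 54.2 and 34.7 in mature hepatocytes. Diff. hepatocytes lay within the range of the hepatoblasts except for 1 library slightly above it, and mature hepatocytes lay more than 10-fold higher. The log2 ratio differed by 0.26 ± 0.30 between Diff. hepatocytes and hepatoblasts (exact permutation p = 0.543), by 4.54 ± 0.38 between mature hepatocytes and hepatoblasts and by -4.27 ± 0.28 between Diff. and mature hepatocytes (exact permutation p = 0.0286, adjusted 0.0429, for both).

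Cbs and Cth, which carry homocysteine out of the cycle, were intermediate in Diff. hepatocytes. Cbs encodes cystathionine beta-synthase, which joins homocysteine and serine, and its gene (ENSMUSG00000024039) lies on the minus strand of chr17:31608894-31637238. Cbs levels were 69.6, 74.8, 109 and 122 CPM in hepatoblasts, 177, 257, 228 and 229 CPM in the Diff. hepatocytes, and 916, 486, 796 and 823 CPM in the mature hepatocytes. The groups were separate, with hepatoblasts replicates 3 and 4 above replicates 1 and 2. Cbs rose 2.37-fold in Diff. hepatocytes (log2 1.25 ± 0.22, adjusted p = 2.63e-04) and 8.05-fold in mature hepatocytes (log2 3.01 ± 0.23, adjusted p = 6.24e-08), and Diff. hepatocytes were 3.39-fold lower than mature hepatocytes (log2 -1.76 ± 0.22, adjusted p = 1.13e-05). With library totals the first of these was 0.94 and no longer called.

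Cth encodes cystathionine gamma-lyase, which releases cysteine, and its gene (ENSMUSG00000028179) lies on the minus strand of chr3:157894248-157925077. Cth was at 71.3, 92.5, 116 and 112 CPM in hepatoblasts, 147, 204, 198 and 188 CPM in the Diff. hepatocytes, and 682, 434, 376 and 517 CPM in the mature hepatocytes. These groups did not overlap either. The log2 fold change of 0.91 ± 0.19 (adjusted p = 0.00122) in Diff. hepatocytes against hepatoblasts missed the threshold, and passed it at 1.01 without Diff. hepatocytes replicate 1. In mature hepatocytes Cth rose 5.12-fold (log2 2.36 ± 0.20, adjusted p = 1.82e-07), and Diff. hepatocytes were 2.73-fold lower than these (log2 -1.45 ± 0.20, adjusted p = 2.28e-05), a call that was lost at -0.91 with library totals.

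Levels of the 10 genes were ordered within each group on CPM per kilobase. In hepatoblasts, Cth (35.1), Ahcy (29.7), Gnmt (26.5), Mat2a (20.5), Mat1a (17.7), Cbs (12.5), Bhmt (9.46) and Mat2b (7.45) followed each other with overlapping ranges between neighbours, and Mtr (3.98) and Nnmt (0.0455) were lower without overlap. In Diff. hepatocytes, Mat1a (699) led, followed without overlap by Gnmt (261), Ahcy (102), Cth (66.0), Cbs (29.8), Mat2a (17.2), Mat2b (9.76) and Bhmt (6.02). Nnmt (5.11) overlapped Bhmt, and Mtr (2.11) was the lowest. In mature hepatocytes, Gnmt (1676) was above Mat1a (832), and these were followed by Ahcy (207), Cth (180), Bhmt (127), Cbs (101) and Nnmt (71.1), whose neighbours overlapped. Mat2a (15.2), Mat2b (8.82) and Mtr (2.20) were at the bottom without overlap. On the longest annotated transcript, Cth (277) was above Ahcy (228) in mature hepatocytes, Mat2b (15.1) was above Bhmt (13.7) in hepatoblasts, and Mat2b (17.9) and Mat2a (20.1) were close to each other in mature hepatocytes. The log2 ratio of Gnmt to Mat1a differed by -2.44 ± 0.12 between Diff. and mature hepatocytes, which is 5.43-fold, and that of Bhmt to Mat1a by -4.11 ± 0.39, which is 17.3-fold. Both ratios were chosen after the values had been seen and are given as a description.

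The place of Diff. hepatocytes on the way from hepatoblasts to mature hepatocytes was measured for the 7 genes called between these outer groups, as a percent of the log2 distance, a measure chosen after the values had been seen. Mat1a stood at 95.5% (94.2 to 98.5 with each library left out in turn). Ahcy stood at 63.5% (61.0 to 65.1) and Gnmt at 55.2% (53.8 to 56.4). The value of Nnmt, 63.9% (61.4 to 66.1), rests on 9 counts in hepatoblasts and depends on the prior count, so it has no rank among the others. The transsulfuration genes were lower, Cbs at 41.4% (38.5 to 44.7) and Cth at 38.6% (35.6 to 42.6). Bhmt stood at -17.4% (-21.0 to -15.2), outside the interval on the hepatoblast side. With library totals, these were 106.1% for Mat1a, 66.2% for Nnmt, 74.8% for Ahcy, 58.3% for Gnmt, 43.5% for Cbs, 39.7% for Cth and -33.1% for Bhmt.

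**Figure D4:**
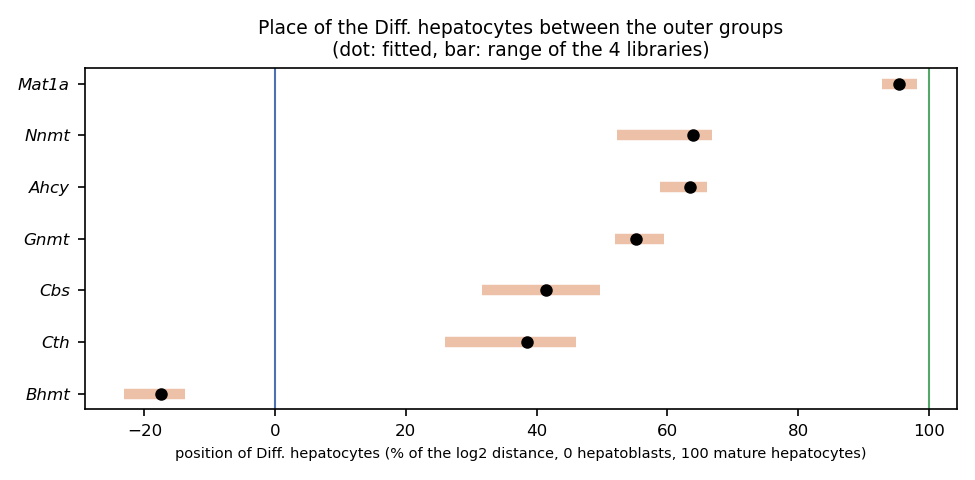
Position of Diff. hepatocytes between hepatoblasts (0) and mature hepatocytes (100) in percent of the log2 distance, for the 7 genes called between the outer groups. Points are fitted values, that of Nnmt depending on the prior count, and bars span the 4 single Diff. hepatocyte libraries. Mat1a lies at 95.5%, Nnmt, Ahcy, Gnmt, Cbs and Cth between 38.6% and 63.9%, and Bhmt at -17.4%.

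Of the 10 genes, Mat1a, Gnmt, Ahcy, Bhmt, Cbs and Cth had more RNA in hepatoblasts replicates 3 and 4 than in replicates 1 and 2. Mat2a, Mat2b and Mtr had less in replicates 3 and 4, and Nnmt was near 0 in all. The share of all tested genes that separate these libraries was not counted. The summed CPM of 10 hepatocyte genes rose over replicates 1 to 4, at 37771, 48304, 56244 and 63608. That of 10 erythroid genes fell, at 3064, 621, 512 and 377. Without replicate 1, the mean of Mat1a in hepatoblasts was 64.8 CPM in place of 61.3 CPM and that of Gnmt 35.3 CPM in place of 32.0 CPM. The log2 fold changes of mature hepatocytes against hepatoblasts were then 5.47 for Mat1a, 5.84 for Gnmt, 3.62 for Bhmt, 2.88 for Cbs and 2.23 for Cth, and no call among the 10 genes changed. The part of cell composition in the spread between hepatoblast libraries was not tested.

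The genes around the cycle were counted in lists of 58 genes in all, each of which passed the filter. Diff. hepatocytes had 10 genes higher and 13 lower than hepatoblasts, which is 39.7% called against 28.9% of all tested genes. Mature hepatocytes had 26 higher and 11 lower than hepatoblasts (63.8% against 44.8%), and Diff. hepatocytes had 3 higher and 30 lower than mature hepatocytes (56.9% against 35.8%). With library totals the split became 16 higher and 17 lower in mature hepatocytes against hepatoblasts, and 11 higher and 18 lower in Diff. against mature hepatocytes. The split of all tested genes moved as well. It went from 3580 higher and 4391 lower to 2007 and 7920 in the first of these comparisons. In the second it went from 3586 higher and 2776 lower to 5500 and 1776. Counts of the single lists with library totals have this background, not the shares found with TMM.

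Of 8 SAM-dependent methyltransferases of small molecules, 2 rose and 1 fell in Diff. hepatocytes against hepatoblasts, near the 14.9% and 14% of all tested genes. In mature hepatocytes 6 rose, against 20.1% of all genes, and 6 were lower in Diff. than in mature hepatocytes, against 15.6%, counts that were 4 and 4 with library totals. Pemt, which makes phosphatidylcholine, rose from 4.24 ± 0.760 CPM in hepatoblasts to 154 ± 22.6 CPM in the Diff. hepatocytes (log2 5.18 ± 0.17, adjusted p = 9.22e-11) and was at 337 ± 42.4 CPM in the mature hepatocytes (SD, n = 4). In contrast, Inmt, which methylates indoleamines, was at 0.804 ± 0.287 CPM in hepatoblasts, 0.429 ± 0.142 CPM in the Diff. hepatocytes and 805 ± 277 CPM in the mature hepatocytes. Hnmt, which inactivates histamine, was likewise at 0.182 ± 0.0667, 0.328 ± 0.182 and 24.3 ± 2.86 CPM. Gamt, which makes creatine, fell in culture, from 94.4 ± 19.98 to 34.0 ± 3.57 CPM (log2 -1.47 ± 0.15, adjusted p = 2.35e-06), and was at 215 ± 26.5 CPM in the mature hepatocytes.

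Genes of choline, betaine and glycine metabolism were called lower in Diff. than in mature hepatocytes in 7 of 8 cases, against 15.6% of all tested genes. With library totals, 6 were. Against hepatoblasts, 0 rose and 2 fell in Diff. hepatocytes, near the shares of all genes, and 5 rose in mature hepatocytes, against 20.1%. Chdh, which begins the conversion of choline to betaine, was at 35.2 ± 11.6, 66.2 ± 4.01 and 389 ± 79.7 CPM in hepatoblasts, Diff. and mature hepatocytes (log2 -2.56 ± 0.21 between Diff. and mature hepatocytes, adjusted p = 2.01e-07). Dmgdh, which breaks down the dimethylglycine left by Bhmt, was at 113 ± 23.9, 58.4 ± 4.20 and 580 ± 87.9 CPM, and it was the gene of this list with the largest difference between Diff. and mature hepatocytes (log2 -3.31 ± 0.17, adjusted p = 2.11e-09). Amt and Gcsh, both of the glycine cleavage system, fell in culture by 2.74 ± 0.24 (adjusted p = 4.52e-07) and 1.34 ± 0.12 (adjusted p = 7.31e-07) on the log2 scale. Gldc of the same system did not fall in culture (log2 0.21 ± 0.27, edgeR adjusted p = 0.528), and was at 346 ± 66.6, 400 ± 68.3 and 227 ± 97.8 CPM.

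Among 15 folate and remethylation partners, 3 rose and 4 fell in Diff. hepatocytes over hepatoblasts, against 14.9% and 14% of all tested genes. In mature hepatocytes 4 rose and 5 fell, against 20.1% and 24.7%. Compared with mature hepatocytes, 3 were higher and 6 lower in Diff. hepatocytes, against 20.2% and 15.6%. That split became 6 higher and 1 lower with library totals. Aldh1l2, a mitochondrial enzyme that oxidises formyltetrahydrofolate, was at 1.34 ± 0.529 CPM in hepatoblasts, 31.3 ± 5.28 CPM in the Diff. hepatocytes and 0.544 ± 0.224 CPM in the mature hepatocytes. It rose by 4.55 ± 0.26 on the log2 scale over hepatoblasts (adjusted p = 1.35e-08) and was 5.82 ± 0.31 above mature hepatocytes (adjusted p = 3.37e-09), in contrast to its cytosolic relative Aldh1l1, which rose stepwise from 114 ± 25.1 to 319 ± 50.9 and 1815 ± 119 CPM. The mitochondrial enzymes Mthfd2 and Mthfd1l were lowest in mature hepatocytes. In hepatoblasts, Diff. and mature hepatocytes, Mthfd2 was at 43.9 ± 13.8, 36.2 ± 3.46 and 4.62 ± 1.28 CPM and Mthfd1l at 77.4 ± 11.3, 33.4 ± 2.53 and 4.32 ± 3.16 CPM. The Mthfd2 levels of hepatoblasts and Diff. hepatocytes overlapped (log2 -0.28 ± 0.20, edgeR adjusted p = 0.245). Mthfd1l was called lower in Diff. hepatocytes than in hepatoblasts (log2 -1.21 ± 0.31, adjusted p = 0.0047). Tyms, which makes thymidylate and is also in the cell cycle list, fell from 65.2 ± 3.34 to 8.07 ± 0.198 CPM in culture (log2 -3.01 ± 0.08, adjusted p = 2.54e-11). Bhmt2, a paralog of Bhmt that uses S-methylmethionine, was at 101 ± 22.8, 129 ± 13.8 and 275 ± 14.0 CPM and was lower in Diff. than in mature hepatocytes (log2 -1.09 ± 0.14, adjusted p = 2.04e-05).

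Downstream of Cth, 4 of 11 genes of cysteine, taurine and glutathione metabolism rose and 1 fell in Diff. hepatocytes against hepatoblasts. The shares of all tested genes were 14.9% and 14%. In mature hepatocytes 7 rose, against 20.1%, and 8 were lower in Diff. than in mature hepatocytes, against 15.6%. The last count was 5 with library totals and 3 without the 50 most abundant genes. Cdo1 and Csad, which lead from cysteine to taurine, rose in culture from 104 ± 20.9 to 439 ± 63.8 CPM and from 87.3 ± 20.3 to 324 ± 31.7 CPM, and were at 1291 ± 295 and 735 ± 197 CPM in the mature hepatocytes. Gclc, the catalytic subunit of the first step of glutathione synthesis, was at 37.8 ± 10.5, 175 ± 15.4 and 519 ± 186 CPM. Sqor, which oxidises sulfide, rose from 1.59 ± 0.310 to 32.6 ± 0.574 CPM in culture (log2 4.35 ± 0.16, adjusted p = 3.71e-10) and was at 198 ± 39.0 CPM in the mature hepatocytes. Suox, which oxidises sulfite, fell from 51.8 ± 11.4 to 24.5 ± 2.09 CPM and was at 184 ± 39.8 CPM in the mature hepatocytes.

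The polyamine and methionine salvage genes, which use decarboxylated SAM and recover its methylthio group, held 0 that rose and 4 of 9 that fell in Diff. hepatocytes against hepatoblasts. Of all tested genes, 14.9% rose and 14% fell there. In mature hepatocytes 1 rose and 5 fell, against 20.1% and 24.7% of all genes. Compared with mature hepatocytes, 0 were higher and 2 lower in Diff. hepatocytes, against 20.2% and 15.6%. Library totals gave 4 higher and 2 lower in this last comparison. Enoph1 of the salvage pathway was at 23.7 ± 1.52, 8.33 ± 1.47 and 4.74 ± 0.953 CPM, and Srm, spermidine synthase, at 122 ± 5.21, 66.6 ± 2.64 and 36.0 ± 12.6 CPM. Adi1, also of the salvage pathway, was the 1 gene that rose in mature hepatocytes, with 48.7 ± 7.42, 51.8 ± 3.37 and 169 ± 29.8 CPM. Of 4 genes that handle SAH and SAM, Adk, which removes the adenosine released by Ahcy, rose from 144 ± 13.2 to 397 ± 23.5 CPM in culture (log2 1.46 ± 0.10, adjusted p = 7.18e-08) and was at 639 ± 68.3 CPM in the mature hepatocytes. In the list of 3 RNA-binding regulators known to act on Mat1a and Mat2a transcripts, Hnrnpd fell from 164 ± 17.7 to 59.3 ± 2.16 and 51.3 ± 9.27 CPM, and Mettl16 and Elavl1 were not called with the TMM scaling.

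**Figure D5:**
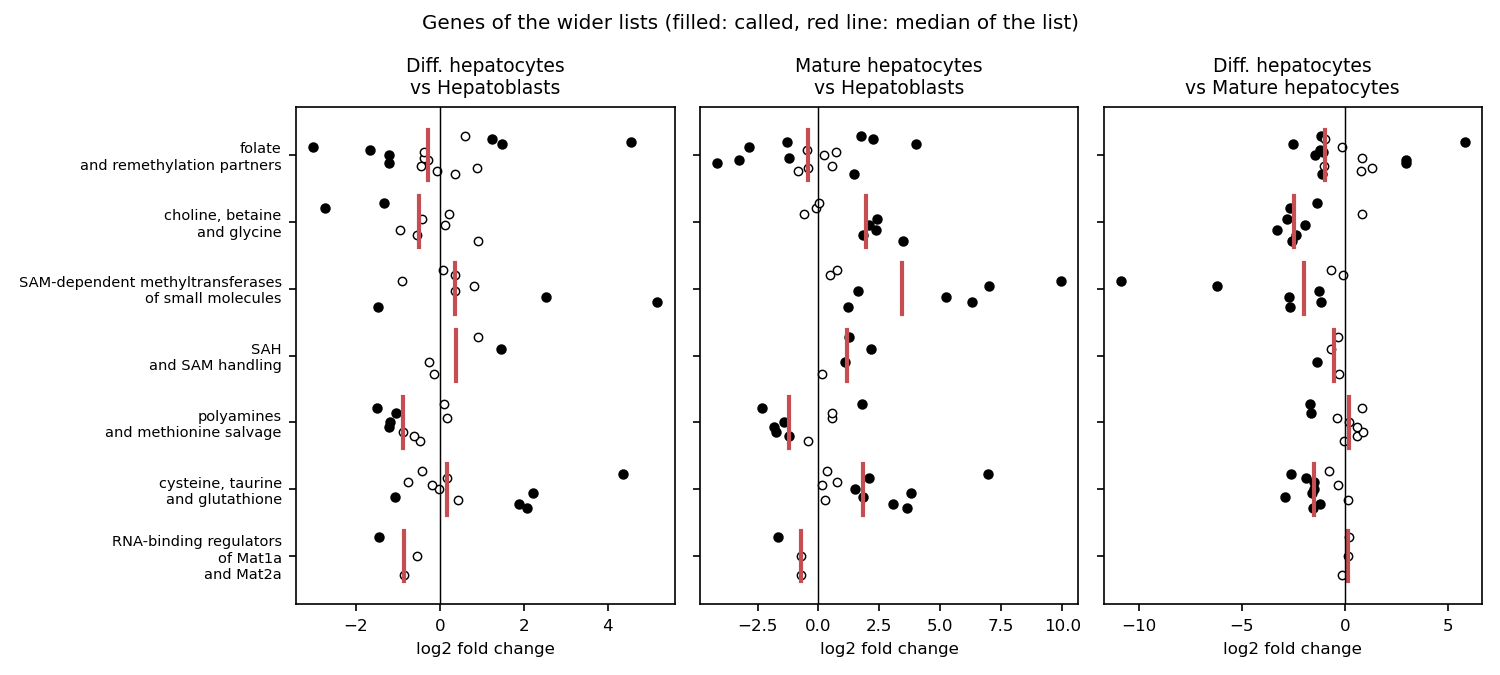
Log2 fold changes of the 58 genes around the cycle, by list, with 1 point per gene, filled where the gene was called and with a red line at the median of the list. The horizontal ranges differ between panels. In the comparison of Diff. with mature hepatocytes, 30 genes lie to the left as called and 3 to the right, all 3 of the folate list.

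The genes whose pattern over the 12 libraries was most like that of Mat1a, Mat2a and Nnmt were listed among 8696 genes of at least 10 CPM, by the root-mean-square difference of log2 CPM centred on each gene's mean. The libraries of a group share their source, and the measure was not tested. For Mat1a the closest were Sel1l3 (0.32), Sult1a1 (0.37), Arg1 (0.40), Itga7 (0.40) and 1810008I18Rik (0.41). Arg1, the urea cycle enzyme arginase, was at 21.1, 753 and 1562 CPM in the 3 groups. For Mat2a they were Ercc6l2 (0.08), Nufip1 (0.09), Prkrip1 (0.10) and Akap8 (0.12). For Nnmt they were Cyp2j5 (0.50), Fbp1 (0.53), Ugt1a1 (0.56), Apoa5 (0.61) and Cyp3a11 (0.63), among which Fbp1, an enzyme of gluconeogenesis, was at 2.42, 165 and 1450 CPM.

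Promoter sequences of RefSeq on GRCm38.p6, from 250 bases before to 50 after the start, matched 7 of the 10 genes. CpG dinucleotides numbered 34 in Mat2a, 24 in Mtr, 22 in Cbs, 19 in Mat2b, 13 in Ahcy, 11 in Gnmt and 8 in Bhmt, where the median of 32851 promoters was 7 and their quartiles were 3 and 20. CCAAT, searched on both strands, was in 7 of the 7 promoters and in 37.4% of all, TATAAA in that of Mat2a and in 13.6% of all, and CACGTG in that of Cbs and in 7.15% of all. TGACGTCA was in 0 of the 7 and in 1.79% of all. The 250 bases before the RefSeq start are shown for Mat2a and Bhmt, with CpG dinucleotides in capitals. Mat2a levels differed little between the groups, and Bhmt levels differed 21-fold between culture and adult liver. The Bhmt stretch lies largely inside the gene as annotated here, whose start on the minus strand is at 93637961. The Mat2b promoter, chr11:40692633-40692932, lies wholly inside its annotated gene, chr11:40679314-40695203. Methylation and binding at these sequences were not measured.
Mat2a, minus strand of chr6:72439557-72439806, 29 CpG: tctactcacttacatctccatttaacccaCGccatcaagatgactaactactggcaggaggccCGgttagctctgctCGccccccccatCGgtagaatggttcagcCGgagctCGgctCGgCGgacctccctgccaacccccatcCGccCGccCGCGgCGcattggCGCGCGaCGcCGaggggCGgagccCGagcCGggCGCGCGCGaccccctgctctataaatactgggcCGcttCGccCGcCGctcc
Bhmt, minus strand of chr13:93637759-93638008, 5 CpG: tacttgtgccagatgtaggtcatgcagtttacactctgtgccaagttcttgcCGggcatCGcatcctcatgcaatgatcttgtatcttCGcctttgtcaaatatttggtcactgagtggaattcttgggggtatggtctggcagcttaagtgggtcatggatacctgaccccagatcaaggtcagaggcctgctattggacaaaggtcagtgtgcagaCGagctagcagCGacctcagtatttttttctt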

How the data were processed

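RNA of 12 libraries was analysed, 4 each of hepatoblasts, Diff. hepatocytes and mature hepatocytes, grouped by their labels. The authors enriched poly(A) RNA, made libraries described as strand-specific and sequenced single reads of 75 bp. STAR 2.5.2b, named in the submitters' processing notes with GRCm38, gave their counts over Ensembl release 92 genes. Raw counts of each gene were deposited, without normalization. The authors assessed read duplication with Picard 2.10.2, and the strand setting of the counts is not given in the sources used here. Gene positions, exon lengths and transcripts came from GENCODE M21 (Ensembl release 96), which held 53620 of the 53715 identifiers.

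The analysis used edgeR 4.0.16 under R 4.3.3 (TMM, more than 10 counts in any library, quasi-likelihood test on 12 libraries with no term but the group, prior count of 2 for log2 CPM) and, as an alternative, DESeq2 1.42.0. The thresholds follow the study, which used DESeq2 1.22.2. Log2 ratios of 2 genes within a library, with 0.5 added to each count, were compared by an exact permutation test, two-sided, that took all 70 ways of dividing 8 libraries, with adjustment over 12 tests. SE is the standard error of a log2 fold change or of a difference between group means of log2 ratios, and SD the standard deviation between libraries. Replicates differed by more than counting error, so errors and p-values refer to the spread between these libraries. Counts of reads are not independent molecules, and counting intervals cover counting error alone.

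The members and lists were chosen with earlier results of these data known. All 10 members are named; of the other lists, at most 4 called genes per comparison with the largest fold change were named, plus genes that a result turns on. Sequences of 75 bases were compared between transcripts of the 10 genes and those of all other genes. The fit was tested on simulated data. Alternatives covered the scaling, tool, filter, threshold, replicate block and each library left out; the values without hepatoblasts replicate 1 were added after seeing the data. Results of a few genes are not reported here.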

Additional observations from a re-analysis of the deposited data

Results flagged for a closer look

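In 4 of 42 sets of 4 libraries (the CPM of the 10 genes and 4 ratios, in 3 groups), 1 library stood further from the others than Dixon's 95% critical value for 4 samples allows, where about 2.1 would do so by chance. Mat1a was at 3859 CPM in mature hepatocytes replicate 4 and at 2458 to 2682 CPM in the other mature hepatocytes. Mtr was at 44.2 CPM in hepatoblasts replicate 1, the library with the most erythroid RNA, and at 29.8 to 31.8 CPM in the other hepatoblasts. The log2 count ratio of Mat1a to Mat2a was 5.19 in Diff. hepatocytes replicate 3 and 4.87 to 4.91 in the other Diff. hepatocytes. The log2 count ratio of Gnmt to Nnmt was 3.41 in mature hepatocytes replicate 2, which had the highest Nnmt level of 166 CPM, and 4.40 to 4.57 in the other mature hepatocytes.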

How the results depend on the processing

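The counts of called members were 5, 7 and 6 (hepatoblasts to Diff. hepatocytes, hepatoblasts to mature hepatocytes, mature to Diff. hepatocytes) and, with each library left out in turn, 5 to 6, 7 to 7 and 5 to 6; genes called over all genes were then 4704 to 5170, 7621 to 7967 and 6027 to 6532. With adjusted p under 0.05 as the only threshold, 9 members were called between hepatoblasts and Diff. hepatocytes, and 10615, 12870 and 11580 genes. With the threshold inside the test, DESeq2 called 2504, 4923 and 3528 genes and edgeR's glmTreat 2966 genes in Diff. hepatocytes against hepatoblasts and 4221 in Diff. against mature hepatocytes. With at least 10 counts in every library, which leaves fewer genes, 2634, 4379 and 3107 were called, against 5145, 7971 and 6362. Library totals moved the median log2 fold change of all genes from -0.15 to -1.0 in mature hepatocytes against hepatoblasts, and to -0.82 without the 50 most abundant genes, and the share of higher among called genes from 44.9% to 20.2% and 24.5% (from 51.5% to 35.4% and 46.0% for Diff. hepatocytes against hepatoblasts, and from 56.4% to 75.6% and 76.5% against mature hepatocytes). Mat2b then reversed, at -0.62 and -0.43. In Diff. against mature hepatocytes, Mat1a reversed to 0.29 and 0.32 and Mtr to 0.47 and 0.50 under these scalings, and Mtr to 0.048 with at least 10 counts in every library; the cause of these reversals beyond the shift of all genes was not tested. Cbs between hepatoblasts and Diff. hepatocytes, and Ahcy and Cth between Diff. and mature hepatocytes, lost their call with the threshold inside either test. Whether same-numbered libraries share an isolation is not stated: their deviations correlated at 0.27, -0.05, 0.28 and 0.22 between hepatoblasts and Diff. hepatocytes, 3 of 4 above 0.1, and at -0.10 to 0.12 between Diff. and mature hepatocytes, so the criterion that every pair exceed 0.1 was not met. Not every library correlated best with its own number. With the replicate block, 5220, 7988 and 6359 genes were called, and no call among the members changed. For the ratios, sign flips of the 4 same-numbered pairs (replicate block) cannot give a p under 0.125, so no ratio could pass: the differences were 5.64 and 6.06 for Mat1a to Mat2a, 4.54 and -4.27 for Bhmt to Mtr, -3.32 and -4.46 for Gnmt to Nnmt, and 0.65 and 0.68 for Mat2b to Mat2a. With each library left out, the ratio of Mat1a to Mat2a differed by 5.36 to 5.90, 5.77 to 6.32 and -0.52 to -0.27, that of Bhmt to Mtr by -0.0027 to 0.40 (reversed without hepatoblasts replicate 1, at -0.0027), 4.27 to 4.76 and -4.50 to -4.08, that of Gnmt to Nnmt by -3.63 to -2.96, -4.78 to -4.11 and 0.88 to 1.44 (past the threshold without Diff. hepatocytes replicate 1, at 1.44), and that of Mat2b to Mat2a by 0.59 to 0.68, 0.59 to 0.76 and -0.12 to 0.059 (reversed without Diff. hepatocytes replicate 2 or mature hepatocytes replicate 3 or 4, at 3e-04, 0.036 and 0.059). Levels per kilobase moved by more than the spread between libraries for 18 of 30 gene and group pairs when the longest transcript set the length. At this depth 1 count was 0.0322 CPM in hepatoblasts replicate 1, which limits the size of the Nnmt difference.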
